A study of Mus musculus with 19 samples.

Results

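Slc35d3, Impg1, Cntnap3, Lrrn2, Pcp4, Ptprm, Plxdc1 and Upb1 are 8 genes of the striatum that are less often named as markers of D1 or D2 spiny projection neurons than the dopamine receptors are. They were chosen by symbol, for a difference between the neuron types in these data or on marker lists, and are 8 of the 39017 genes in the tables. All 8 were found by gene identifier. The values that chose them are their levels in D1 against D2 libraries, so those levels are given here as a description with no test.

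The measurements are of ribosome-bound mRNA, obtained by translating ribosome affinity purification (TRAP), in which a tagged ribosomal protein is pulled out together with the mRNA being translated. Old D1 libraries came from striatum of female mice aged 2 years carrying Drd1::EGFP-L10a on the C56BL/6J background, and young D1 libraries from such mice aged 42 days. Old D2 and young D2 libraries came from female mice of the same 2 ages carrying Drd2::EGFP-L10a on that background. Each group has 4 libraries, which the series' design text calls biological replicates. The tag follows the activity of a receptor gene, and Drd2 is also active in cholinergic interneurons of the striatum, so a D2 pull-down can hold their mRNA.

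Spiny projection neurons are the output cells of the striatum. D1 neurons carry the receptor Drd1 and substance P and project mainly to the output nuclei of the basal ganglia, whereas D2 neurons carry Drd2 and enkephalin and project to the external pallidum. Because the types share most of their genes, membrane proteins, adhesion molecules and signalling regulators that differ between them are used to tell them apart. Of the 8 genes, Slc35d3 encodes a transporter of the nucleotide sugar family, and in mice its loss has been linked to trafficking of the D1 receptor and to platelet granules. Impg1 encodes a proteoglycan of the matrix around photoreceptors, known from the retina. Cntnap3 and Lrrn2 encode neuronal membrane proteins, of the contactin-associated neurexin superfamily and of the leucine-rich repeat class. Pcp4 encodes PEP-19, a small protein with an IQ motif that tunes calmodulin. Ptprm encodes the receptor tyrosine phosphatase mu, an adhesion molecule that binds its own kind on neighbouring cells. Plxdc1 encodes a transmembrane protein with a plexin domain, first described in tumour endothelium. Upb1 encodes beta-ureidopropionase, the last enzyme of pyrimidine breakdown, which yields beta-alanine.

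Levels are TPM, a measure of transcript abundance that is scaled within each library and corrects for transcript length, so it can be set side by side between genes. They are given as mean ± SD of 4 libraries. Log2 fold changes carry their standard error (SE) and come from edgeR's quasi-likelihood test on counts of all 16 libraries. Calls were made where the p-value, adjusted by Benjamini-Hochberg over the 13926 genes tested, lay under 0.05. All 8 genes passed the filter on low counts. Slc35d3, Impg1, Cntnap3 and Upb1 were near 0 in 1 or more groups and passed through the groups in which they were high. The age changes share libraries with the differences between types that chose the genes, so their p-values are not free of that choice. The difference between the age changes of D1 and D2 is, term for term, the type difference at 2 years minus that at 42 days. It is made of the values that chose the genes, so for these genes, and for type markers such as Drd1 and Tac1, its p-values are given as a description and support nothing.

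The libraries held 27484038 to 70903004 assigned fragments. In old D1 libraries 10369 to 13705 genes had a count, with a mean fragment length of 151.2 to 164.4 bases. The other 12 libraries held 12783 to 15000 genes, with 170.3 to 195.4 bases. The labels give an index sequence per library that is confounded with the groups, so its share in any difference cannot be told apart from age or type. The type labels held: Drd1 averaged 418.31 ± 130.0 TPM in old D1, 284.28 ± 36.7 in young D1, 67.57 ± 16.7 in old D2 and 8.31 ± 2.54 in young D2. Drd2 stood in D1 libraries at 0.677% of its D2 mean at 2 years and at 0.639% at 42 days. Penk, another D2 marker, stood there at 6.07% and 2.8%. The 6 measured markers on a D2 list summed to 113.03 to 615.02 TPM in old D1 and 112.7 to 228.07 in young D1. In D2 libraries they summed to 5500 to 11506 TPM in old and 7632 to 8865 TPM in young libraries. All 8 markers on a D1 list reached 1 TPM in at least 1 library. Their summed level was 4858 to 7779 TPM in old D1 and 2664 to 3486 in young D1, and 440.8 to 690.4 in old D2 and 144.9 to 172.1 in young D2.

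Promoter letters are shown for 2 genes, 1 from each side, whose windows lie outside annotated exons: the 250 bases before the start of Pcp4, the most abundant of the 8, and of Upb1, the D2-side gene nearest to absence in D1. They are 5′ to 3′ on the gene's strand, from RefSeq on GRCm38.p6, with matches to the motifs named after them in capitals. The Pcp4 window is chr16:96467356-96467605 and the Upb1 window chr10:75406661-75406910, both on the plus strand.
Pcp4: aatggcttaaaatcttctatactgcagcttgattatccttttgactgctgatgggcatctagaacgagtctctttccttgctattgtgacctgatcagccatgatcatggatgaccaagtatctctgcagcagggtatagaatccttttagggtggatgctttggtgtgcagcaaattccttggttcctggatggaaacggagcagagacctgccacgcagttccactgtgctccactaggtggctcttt
Upb1: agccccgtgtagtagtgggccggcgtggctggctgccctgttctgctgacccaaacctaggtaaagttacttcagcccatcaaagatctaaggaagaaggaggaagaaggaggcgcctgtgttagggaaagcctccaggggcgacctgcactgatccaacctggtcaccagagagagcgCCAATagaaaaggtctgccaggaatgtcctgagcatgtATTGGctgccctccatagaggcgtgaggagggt

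Both windows end at a start that RefSeq and GENCODE M21 place at the same base, and the Upb1 window lies inside the span of the gene because other annotated isoforms start upstream. The motifs searched on both strands were the TATA box (TATAAA), the CCAAT box, the GC box (GGGCGG), the cyclic AMP response element (TGACGTCA), its shorter core (TGACG), which a match to the longer element also contains, and the E-box (CACGTG). In the window of Upb1 the motif CCAAT matched 2 times, once on each strand, and none of the other 5 was found. No motif of the 6 was found in the window of Pcp4. Among 32851 mouse promoters of the same length, 33.8% held the CCAAT box, 12.4% the TATA box, 32.7% the GC box, 1.55% the full element, 17.8% its core and 6.02% the E-box. The Pcp4 window had 46.8% G and C with 3 CpG pairs and the Upb1 window 56.4% with 7, beside medians of 52.4% and 6 over all promoters. Over the 7 genes with a RefSeq window, G and C ran from 46.8% in Pcp4 to 81.2% in Ptprm, and CpG pairs from 3 in Pcp4 and Impg1 to 37 in Ptprm. Plxdc1 has no window here.

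**Figure D1:**
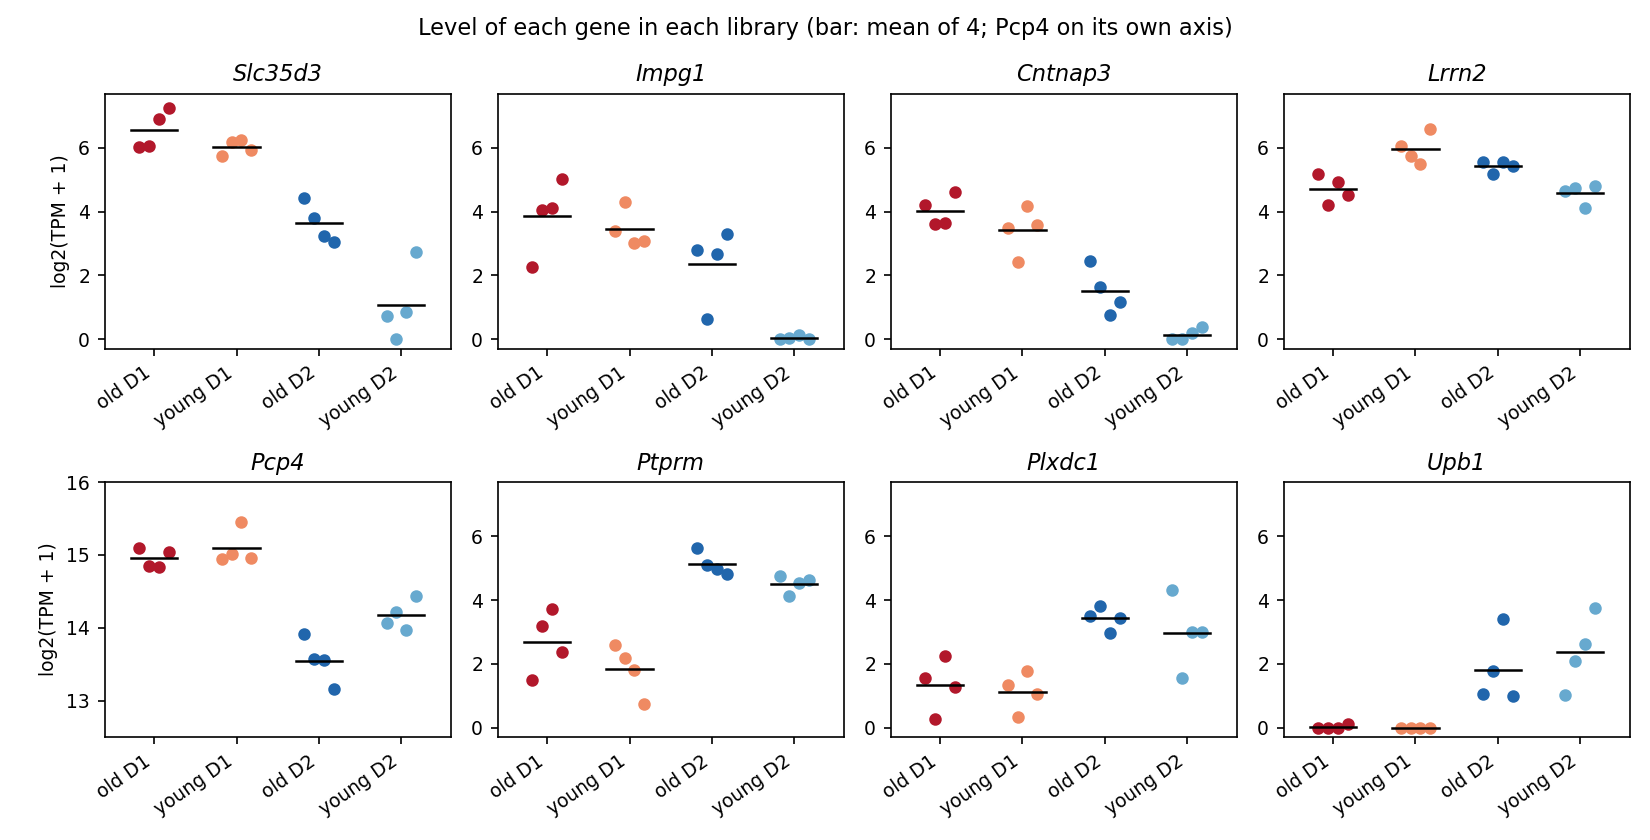
Level of each gene in each library on a log2(TPM + 1) axis; points are libraries, bars are means of 4, and the groups run old D1, young D1, old D2, young D2. Pcp4 has its own axis. The 4 young D2 libraries of Impg1 sit at 0 to 0.09 TPM, and those of Upb1 in both D1 groups at 0 to 0.08 TPM.

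At 2 years, 4 of the 8 genes had a higher fitted level in D1 and 4 in D2. At 42 days, 5 of the 8 were higher in D1 and 3 in D2, and D1-side and D2-side are used here in that sense. The 4 TPM values of a type lay wholly above or below those of the other for 6 of the 8 genes at 2 years, where 14.8% of all genes tested did so and edgeR called 9.6%. At 42 days this held for 7 of the 8 genes, beside 6.35% of all genes with no overlap and 0.409% called. Nothing is read from these counts, because the choice of genes used the same contrasts.

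Slc35d3 (ENSMUSG00000050473, chromosome 10, 19847916 to 19851459, minus strand, GRCm38) was the second most abundant of the D1-side genes in old D1 neurons. Its levels were 63.83, 66.18, 118.0 and 152.11 TPM in old D1, against 52.41, 71.84, 74.23 and 60.15 TPM in young D1. In old D2 they were 20.43, 13.03, 8.44 and 7.24 TPM, against 0.66, 0, 0.81 and 5.64 TPM in young D2. Every D1 library lay above every D2 library, and the old D2 libraries all lay above the young D2 libraries. The order of the means was 100.03 ± 42.8 in old D1, 64.66 ± 10.2 in young D1, 12.29 ± 5.98 in old D2 and 1.78 ± 2.6 in young D2, with overlap only between the D1 groups. D1 exceeded D2 by 3.18 (SE 0.87) on the log2 scale at 2 years and by 5.34 (SE 0.97) at 42 days. The age difference of Slc35d3 in D2 neurons was log2 2.74 (SE 0.86), with an unadjusted p = 0.0049 and an adjusted p = 0.529 by edgeR, so it was not called. Without young D2 replicate 4, the library at 5.64 TPM, it was 4.54 with an adjusted p = 0.0463. It was not called in the other 22 of 23 alternative fits, with an adjusted p up to 0.939. In D1 neurons it was 0.58 (SE 0.80, adjusted p = 0.709), and the age changes differed by -2.16 (SE 1.15, adjusted p = 0.36).

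Impg1 (ENSMUSG00000032343, chromosome 9, 80313330 to 80465481, minus strand) had a fitted rise with age in D2 neurons of log2 6.87 (SE 1.28, adjusted p = 0.0416, edgeR). It was near 0 in young D2 and passed the filter on low counts through the groups in which it was high. Young D2 is also part of the type differences that chose the gene, so this p-value is given as a description. The levels of Impg1 were 5.91, 0.54, 5.33 and 8.86 TPM in old D2, against 0, 0.03, 0.09 and 0 TPM in young D2. The groups did not overlap, and 3 of the 4 old D2 libraries were above 5 TPM, while replicate 2 was at 0.54. Summed over libraries, 990 counts in old D2 stood against 8 in young D2, a ratio of 125 after scaling to library size, with a 95% counting interval of 63.1 to 290. This interval covers counting error only, and the fitted fold of a gene with so few counts depends on the tool's prior. The levels in D1 neurons were 3.76, 15.56, 16.35 and 31.74 TPM at 2 years, against 9.5, 18.9, 7.12 and 7.41 TPM at 42 days. These D1 groups overlap, and the age difference there was 0.77 (SE 0.97, adjusted p = 0.673). The difference between the age changes, D1 minus D2, was -6.10 (SE 1.52, adjusted p = 0.0452), which equals the type difference at 2 years minus that at 42 days and so is no independent test. D1 exceeded D2 by 2.17 (SE 1.01) at 2 years, where the lowest old D1 library lay below 3 old D2 libraries, and by 8.27 (SE 1.35) at 42 days.

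Both calls of Impg1 are descriptions, for the reasons given above, and lie near the threshold. The rise in D2 neurons kept its direction in every fit with 1 library left out, at 6.46 to 8.33, but its adjusted p ran from 0.0257 to 0.183. It was called without old D1 replicate 1, 2 or 4 or old D2 replicate 2, and was not called without any 1 of the other 12 libraries. The difference between age changes was called without old D1 replicate 3 or 4 or young D2 replicate 3, and in none of the other 13 such fits, with an adjusted p from 0.0259 to 0.106. The rise was not called by limma-trend on log2(TPM + 1) (2.30, adjusted p = 0.448), by voom with library weights (6.20, adjusted p = 0.0506) or with only the D2 libraries (6.87, adjusted p = 0.103). The difference for Impg1 was not called with no count filter (-6.12, adjusted p = 0.052), by limma-trend (-1.89, adjusted p = 0.331), by voom (-6.10, adjusted p = 0.0783) or with base composition and length trends removed (-6.59, adjusted p = 0.0632).

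Cntnap3 (ENSMUSG00000033063, chromosome 13, 64736182 to 64903955, minus strand) had a like order of levels at a lower height. It stood at 17.49, 11.34, 11.52 and 23.34 TPM in old D1, against 10.1, 4.35, 16.94 and 10.92 TPM in young D1. In old D2 it stood at 4.46, 2.08, 0.69 and 1.26 TPM, against 0, 0, 0.14 and 0.3 TPM in young D2. The D1 groups overlap, whereas all old D2 libraries lie above all young D2 libraries. The means were 15.92 ± 5.71 in old D1, 10.58 ± 5.15 in young D1, 2.12 ± 1.66 in old D2 and 0.11 ± 0.143 in young D2. The age difference in D2 neurons was log2 4.16 (SE 1.07, unadjusted p = 0.000955, adjusted p = 0.309 by edgeR), and DESeq2 called it with an adjusted p = 0.000456. It was not called in the other 22 of 23 alternative fits, with an adjusted p up to 0.775. In D1 neurons it was 0.54 (SE 0.93, adjusted p = 0.774), and -0.24 once trends over base composition and length were removed. The age changes differed by -3.62 (SE 1.37) with an adjusted p = 0.173 by edgeR and 0.0432 by DESeq2. The other 21 of 22 alternative fits did not call this difference. The type difference was 3.07 (SE 1.0) at 2 years and 6.69 (SE 1.2) at 42 days.

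These genes can be set beside Drd1 and Tac1, the substance P precursor, on the share of the D1 level found in D2 libraries. Mean TPM in D2 as a percentage of that in D1 was 12.3% for Slc35d3 at 2 years and 2.75% at 42 days. For Impg1 it was 30.6% at 2 years and 0.28% at 42 days, and for Cntnap3 13.3% and 1.04%. Drd1 had 16.2% at 2 years and 2.92% at 42 days, and Tac1 10.2% and 7.56%. The share was thus higher at 2 years for each of these 5 genes, least so for Tac1. Of the other D1-side genes, Lrrn2 also had a higher share at 2 years (162% and 36.2%), whereas Pcp4 had a lower one (38.3% and 52.8%). Drd1 rose with age in D2 neurons (log2 2.95, SE 0.29, adjusted p = 2.86e-05). As a description only, its age changes differed between the types (-2.45, SE 0.39, adjusted p = 0.00561). Tac1 rose in both types, by 1.35 (SE 0.25, adjusted p = 0.00202) in D1 and 1.70 (SE 0.25, adjusted p = 0.00508) in D2, with a difference of -0.35 (SE 0.35, adjusted p = 0.686). In bulk libraries, a few D1 cells or their mRNA in a D2 pull-down and a low level in D2 neurons themselves cannot be told apart. Between old and young D2 libraries, the summed D1 markers moved in the same direction as Slc35d3, Impg1 and Cntnap3, as did 7 astrocyte markers. All 7 reached 1 TPM in at least 1 library, and they summed to 25.38 to 37.64 TPM in old D2 and 0.96 to 7.74 in young D2. The part of either set of markers in the age differences of Slc35d3, Impg1 and Cntnap3 was not tested. Among the old D2 libraries, replicate 1 was highest for Slc35d3 and Cntnap3, and replicate 4 was highest for Impg1 and lowest for Slc35d3. Drd1 was highest in replicate 3, at 91.78 TPM, where Cntnap3 was lowest, at 0.69 TPM.

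**Figure D2:**
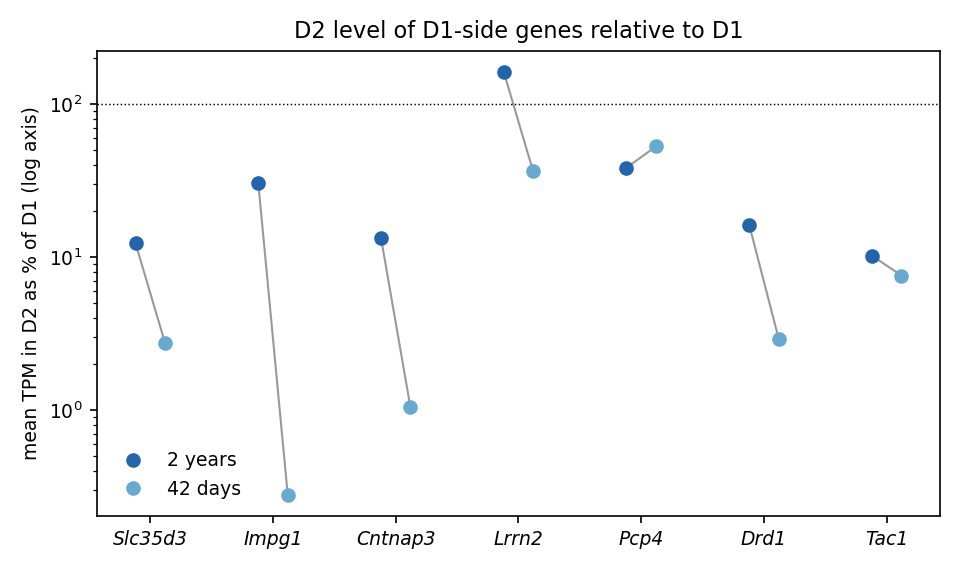
Mean TPM in D2 neurons as a percentage of that in D1 neurons (log axis), at 2 years and at 42 days, for the D1-side genes with Drd1 and Tac1; the dotted line marks 100%. Lrrn2 lies above the line at 2 years (162%) and below it at 42 days (36.2%), and Impg1 has the lowest share at 42 days (0.28%).

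Lrrn2 (ENSMUSG00000026443, chromosome 1, 132880273 to 132940005, plus strand) fell with age in D1 neurons by 1.43 on the log2 scale (SE 0.33, adjusted p = 0.0086, edgeR). Its levels were 35.24, 17.5, 29.71 and 21.87 TPM in old D1, against 65.14, 52.03, 44.03 and 94.99 TPM in young D1. In D2 neurons they were 46.21, 35.02, 46.04 and 41.8 TPM at 2 years, against 23.75, 25.94, 16.1 and 26.86 TPM at 42 days. Neither pair of age groups overlaps, and old lies below young in D1 but above young in D2. The age difference in D2 neurons was 0.78 (SE 0.32) with an unadjusted p = 0.0246 and an adjusted p = 0.73, so it was not called. As a description, the age changes differed between the types by -2.21 (SE 0.46, adjusted p = 0.0208). The means were 26.08 ± 7.93 TPM in old D1, 64.05 ± 22.4 in young D1, 42.27 ± 5.24 in old D2 and 23.16 ± 4.89 in young D2, so young D1 was highest, then old D2, old D1 and young D2. Young D1 and old D2 overlap, old D2 and old D1 overlap in 1 pair of libraries, and old D1 and young D2 overlap widely. At 2 years D1 was below D2 by a log2 difference of -0.59 (SE 0.32), with overlap, and at 42 days D1 exceeded D2 by 1.62 (SE 0.33), so Lrrn2 was higher in D1 at 42 days alone.

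The difference for Lrrn2 is made of the type differences that chose the genes, so its calls are a description and support nothing. Its call held without each of the 16 libraries in turn, at -2.40 to -1.88 with an adjusted p from 0.0123 to 0.0491. The fall in D1 neurons was likewise called in all 16 of those fits. Both calls were lost when trends of each library over base composition and length were removed, which left the fall at -0.39 (adjusted p = 0.483) and the difference at -1.13 (adjusted p = 0.228). In that fit the D1 against D2 difference at 2 years was 0.39. The fall was also not called by voom with library weights (-1.17, adjusted p = 0.0773) or with only the D1 libraries (-1.46, adjusted p = 0.0787). The main transcript of Lrrn2 has 60.4% G and C, the highest of the 8 genes, which otherwise ran from 42.6% to 57.0%. The 8 general spiny projection neuron markers summed to 4454 to 4835 TPM in old D1 and 6435 to 9245 TPM in young D1, so in D1 they were lower in the same libraries as Lrrn2. In D2 they summed to 7451 to 8976 TPM in old and 8488 to 10494 TPM in young libraries, which overlap. Lrrn2 was higher in all old D2 libraries. Marker sums of other neurons spread widely in old D1 and overlapped young D1. For 8 GABAergic interneuron markers they were 30.48 to 605.29 TPM in old D1 and 111.47 to 272.11 in young D1. For 6 cortical glutamatergic markers they were 0.49 to 139.27 TPM in old D1 and 2.3 to 17.81 in young D1. The part of any of these markers in the fall of Lrrn2 was not tested.

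**Figure D3:**
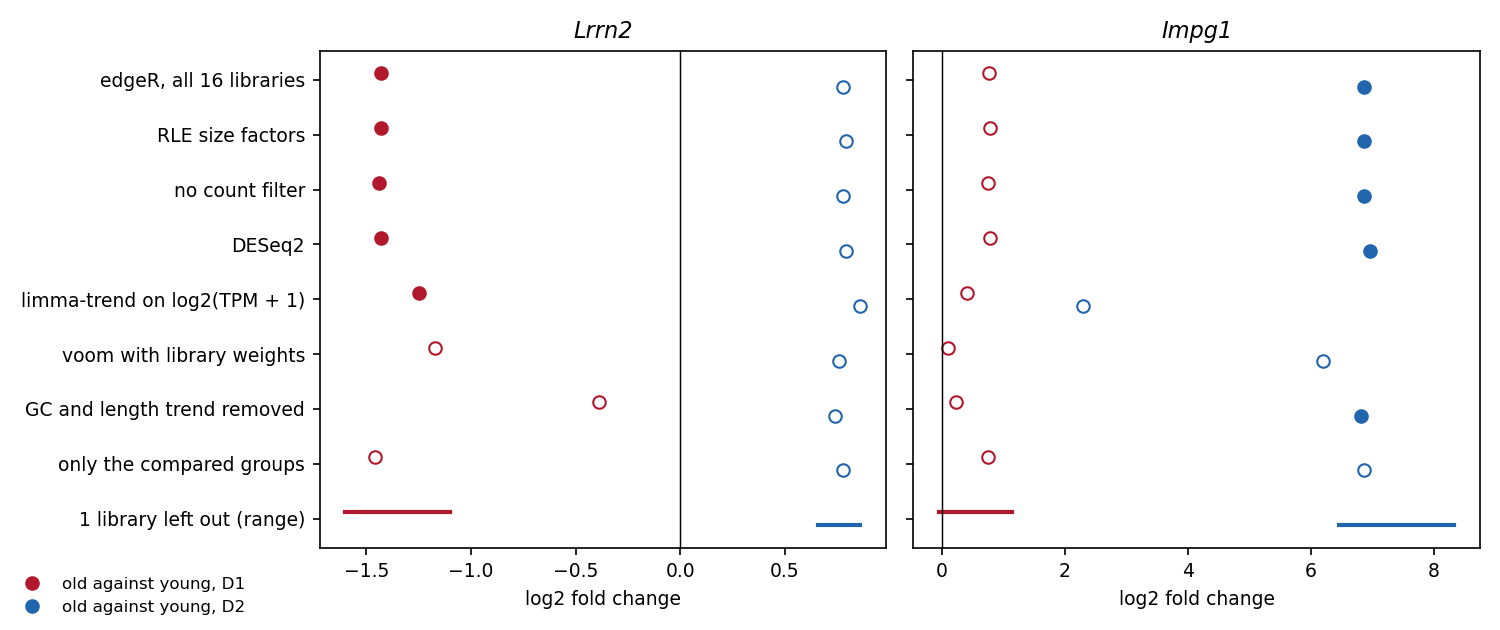
Log2 age change of Lrrn2 and Impg1 in D1 neurons (red) and D2 neurons (blue) under each way of processing; filled points passed an adjusted p under 0.05, and lines span the fits that leave out 1 library. Lrrn2 in D1 lies at -1.60 to -1.10 with 1 library left out and at -0.39 with the base composition and length trends removed.

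Pcp4 (ENSMUSG00000090223, chromosome 16, 96467606 to 96525793, plus strand) was present at a level that no other of the 8 genes approached. It stood at 34877, 29405, 29344 and 33591 TPM in old D1, against 31557, 33032, 44937 and 31873 TPM in young D1. In D2 neurons it stood at 15436, 12136, 12014 and 9198 TPM at 2 years, against 17236, 19127, 16103 and 22227 TPM at 42 days. All D1 libraries lay above all D2 libraries, the D1 groups overlapped and the D2 groups did not. The D1 excess was 1.57 (SE 0.16) on the log2 scale at 2 years and 1.07 (SE 0.16) at 42 days by the fit. As a ratio of mean TPM, a separate measure, D2 stood at 38.3% of D1 at 2 years and 52.8% at 42 days. The age difference was -0.18 (SE 0.16, adjusted p = 0.509) in D1 and -0.69 (SE 0.16, unadjusted p = 0.000371, adjusted p = 0.196) in D2. It was not called in D2 by edgeR but was by voom with library weights, at -0.74 with an adjusted p = 0.0142. The other 22 of 23 alternative fits did not call it. The difference of the age changes was 0.50 (SE 0.22, adjusted p = 0.254). Of the 50-base words in Pcp4 transcripts, 17.5% also occur in transcripts that GENCODE M21 assigns to a second Igsf5 entry that overlaps it, which is not in the tables.

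Ptprm (ENSMUSG00000033278, chromosome 17, 66666947 to 67354457, minus strand) was the most abundant of the D2-side genes. Its levels were 1.84, 8.09, 12.18 and 4.21 TPM in old D1, against 5.04, 3.57, 2.53 and 0.68 TPM in young D1. In old D2 they were 48.84, 33.16, 30.59 and 27.0 TPM, against 26.2, 16.52, 21.95 and 23.52 TPM in young D2. Every D2 library lay above every D1 library, and the lowest old D2 library, at 27.0 TPM, lay just above the highest young D2 library, at 26.2 TPM. D1 was below D2 by a log2 difference of -2.32 (SE 0.53) at 2 years and -2.84 (SE 0.54) at 42 days. The age difference was 1.10 (SE 0.51, adjusted p = 0.176) in D1 and 0.57 (SE 0.51, adjusted p = 1.0) in D2, and neither was called, nor was their difference (0.53, SE 0.72, adjusted p = 0.79). D1 libraries held 18.9% of the D2 mean at 2 years and 13.4% at 42 days. A processed pseudogene on the same strand shares 4.54% of the 50-base words of Ptprm and is not in the tables.

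Plxdc1 (ENSMUSG00000017417, chromosome 11, 97923238 to 97986444, minus strand) was low throughout. It stood at 1.95, 0.21, 3.7 and 1.43 TPM in old D1, against 1.5, 0.25, 2.42 and 1.08 TPM in young D1. In old D2 it stood at 10.38, 12.93, 6.8 and 9.92 TPM, against 18.73, 1.94, 7.07 and 7.02 TPM in young D2. At 2 years the types did not overlap. At 42 days young D2 replicate 2, at 1.94 TPM, lay below the highest young D1 library. The type difference was -2.50 (SE 0.99) at 2 years and -2.64 (SE 1.0) at 42 days. The age difference was 0.35 (SE 0.94, adjusted p = 0.868) in D1 and 0.21 (SE 0.94, adjusted p = 1.0) in D2, with overlap in both and a difference between the types of 0.14 (SE 1.33, adjusted p = 0.98). Plxdc1 is known from endothelium, and 4 of 8 endothelial and mural markers (Pecam1, Tek, Vwf and Pdgfrb) stayed below 1 TPM in every library. The sum of the 8 markers was 0.18 to 22.11 TPM in old D1, 0.37 to 3.53 in young D1, 1.82 to 8.61 in old D2 and 0.03 to 8.78 in young D2.

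Upb1 (ENSMUSG00000033427, chromosome 10, 75401115 to 75441679, plus strand) came closest to a presence in 1 type alone. It was listed at 0, 0, 0 and 0.08 TPM in old D1, with 4 counts, all of them in replicate 4, and at 0 in all 4 young D1 libraries. In old D2 it stood at 1.07, 2.39, 9.67 and 1.0 TPM, against 1.05, 3.28, 5.17 and 12.42 TPM in young D2. The types did not overlap at either age, and the D2 libraries spread widely within each age. At 2 years the ratio of D2 to D1 in summed counts was 205, with a 95% counting interval of 79.9 to 755. At 42 days, 0 counts in D1 stood against 1380 in D2, so D2 was at least 442-fold higher, taking a floor of 3 counts over the 4 young D1 libraries. The age difference in D2 was -0.74 (SE 1.47, adjusted p = 1.0), and none is given for D1 neurons, where the counts are at or next to the floor. The D2 marker Adora2a lies 66331 bases from Upb1 on the same chromosome and averaged 10.39 TPM in old D1, 10.01 in young D1, 539.92 in old D2 and 546.68 in young D2. Other genes within 200000 bases of Upb1, named after their values were seen, were mixed. Gucd1, whose span contains Upb1, averaged 1.95 TPM in old D1, 9.7 in young D1, 8.44 in old D2 and 13.96 in young D2. In the same order Snrpd3 averaged 28.12, 17.67, 55.81 and 53.92 TPM, and Susd2 43.25, 4.13, 0.42 and 0.03 TPM. The 5 measured cholinergic interneuron markers were, like Upb1, higher in D2. They summed to 0.2 to 1.86 TPM in old D1 and 0.18 to 5.25 in young D1, against 11.93 to 26.05 in old D2 and 11.89 to 27.03 in young D2. Their part in the D2 levels of Ptprm, Plxdc1 and Upb1 was not tested.

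**Figure D4:**
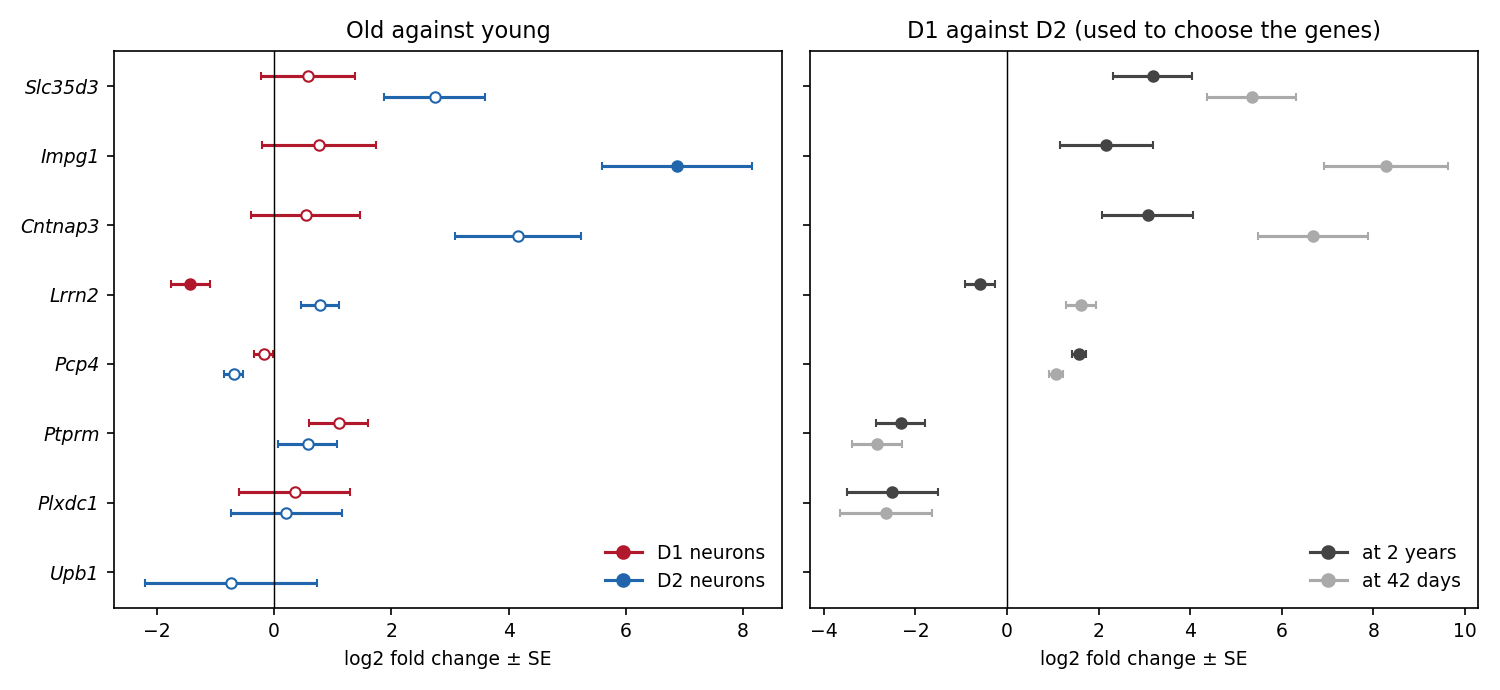
Log2 fold change ± SE of each gene, left for old against young in D1 (red) and D2 (blue), right for D1 against D2 at 2 years (dark) and 42 days (light). On the left, filled points passed an adjusted p under 0.05: Lrrn2 in D1 (-1.43) and Impg1 in D2 (6.87); Upb1 is drawn in D2 alone, on the left.

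Counted over the 8 genes, 1 was called for age in D1 neurons (Lrrn2), where edgeR called 10.8% of all genes tested. For age in D2 neurons 1 was called (Impg1), where 0.079% of all genes were called. For the difference of the age changes 2 were called (Impg1 and Lrrn2), beside 1.77% of all genes, and nothing is read from this count because the choice of genes used its parts. Old and young TPM did not overlap for 1 of the 8 genes in D1, beside 13.8% of all genes, and for 6 of the 8 in D2 neurons, beside 7.07%. The age comparisons share libraries with the type differences that chose the genes, so nothing is read from their counts either. In D2 neurons Slc35d3, Impg1, Cntnap3, Lrrn2 and Ptprm were higher in all old libraries and Pcp4 lower. The median log2 difference over all genes was -0.06 for age in D1, 0.01 for age in D2 and -0.11 for the difference.

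Relatives of each gene, taken from 8 family or pathway lists of 95 genes of which 84 were tested, give the setting. Over all genes tested, edgeR called 10.8% for age in D1, 0.079% for age in D2 and 1.77% for the difference of the age changes. In D1 neurons 4 of the relatives rose and 9 fell with age, with a median log2 difference of -0.37, against -0.06 over all genes. The relatives called numbered 7 rather than 13 without young D1 replicate 4, and 3 with base composition and length trends removed. In D2 neurons edgeR called 0 of them, although 7 had an unadjusted p under 0.05. There DESeq2 called 1, voom 2 and limma-trend 0, and the median was 0.13 beside 0.01. A single relative was called there without old D1 replicate 4. For the difference of the age changes 1 was called, the synaptic leucine-rich repeat gene Lrrc4b. It averaged 19.58 ± 9.0 TPM in old D1, 64.84 ± 32.4 in young D1, 73.51 ± 14.2 in old D2 and 47.74 ± 5.39 in young D2, with a difference of -2.33 (SE 0.56, adjusted p = 0.0387). This call was lost in 12 of the 16 fits with 1 library left out, with adjusted p up to 0.0987, and with the trends removed (-0.95, adjusted p = 0.476). Lrrn2 and Lrrc4b come from the same list, in which 11 genes were tested beside Lrrn2. Of those 11, 2 rose and 3 fell with age in D1 neurons, and the riser with the smallest adjusted p was the synapse organiser Lrrtm2, at 167.46 ± 98.0 TPM in old D1 and 59.16 ± 9.95 in young D1 (log2 1.49, SE 0.33, adjusted p = 0.00688). Old D1 replicate 4 stood at 309.15 TPM and the other old D1 libraries at 84.93 to 146.5 TPM, and without replicate 4 the change of Lrrtm2 was 0.89 and was still called. It was not called by voom (0.88, adjusted p = 0.0838) or with only the D1 libraries (1.47, adjusted p = 0.0748).

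The calmodulin list holds the genes closest to Pcp4 in function, 6 of 6 tested, of which 3 fell with age in D1 neurons and none rose. The postsynaptic calmodulin binder Nrgn averaged 174.92 ± 37.9 TPM in old D1 and 657.23 ± 248.2 in young D1 (log2 -2.01, SE 0.30, adjusted p = 0.000427). Calm3, a calmodulin gene, averaged 487.38 ± 69.6 TPM in old D1 and 1426.12 ± 451.17 in young D1 (log2 -1.18, SE 0.20, adjusted p = 0.0012). Between the types at 2 years, 1 of the 6 was higher and 3 were lower in D1, where edgeR called 9.6% of all genes tested. Pcp4l1, the closest relative of Pcp4, was among the lower, at 877.12 ± 345.6 TPM in old D1 and 2469.29 ± 266.02 in old D2 (log2 -1.37, SE 0.20, adjusted p = 0.000317), whereas Pcp4 itself was higher in D1. Calm2 was higher in D1, at 30758.91 ± 3949.26 TPM against 21279.26 ± 1805.65 in old D2 (log2 0.68, SE 0.12, adjusted p = 0.00152), but not once base composition and length trends were removed (0.11, adjusted p = 0.651).

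Over all 8 lists, 6 relatives of 84 tested were called higher and 7 lower in D1 at 2 years, where edgeR called 9.6% of all genes. DESeq2 called 20 relatives there, limma-trend 17, voom 10, and the fit with base composition and length trends removed 7. Among the Slc35 transporters, 22 of 24 were tested, and 1 rose and 1 fell with age in D1 neurons. The riser was Slc35f1, at 133.55 ± 40.9 TPM in old D1 and 47.52 ± 9.77 in young D1 (log2 1.45, SE 0.26, adjusted p = 0.00182). With base composition and length trends removed, the age changes of Slc35f1, Lrrtm2, Nrgn and Calm3 were 0.75, 0.43, -0.92 and -0.28, and none was called, with adjusted p from 0.0564 to 0.399.

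The receptor phosphatase list of Ptprm had 15 of 15 genes tested, of which 2 fell with age in D1 neurons and 1 was lower in D1 at 2 years. The plexin list of Plxdc1 had 10 of 10 tested, with 1 higher and 1 lower in D1 at 2 years. For Impg1, 6 of 10 matrix proteoglycan genes were tested and 1 was higher in D1 at 2 years. In the list of Upb1, 5 of 9 genes of pyrimidine breakdown and beta-alanine were tested, and edgeR, DESeq2, voom and limma-trend called 0 in every comparison, with at most 2 at an unadjusted p under 0.05 by edgeR. A few close relatives are named here after their values were seen. Impg2, the retinal partner of Impg1, averaged at most 0.11 TPM in any group. Dpyd and Dpys, the enzymes before Upb1 in the pathway, averaged at most 0.36 and 1.37 TPM.

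Genes whose levels over the 16 libraries were most like those of each gene were found by the root mean square (RMS) difference of log2(TPM + 1), each gene centred on its own mean, among 10098 genes. Drd1 was nearest to Slc35d3, at 0.63 log2 units, followed by Tac1 at 0.75 and Sfxn1, a mitochondrial serine transporter, at 0.77. Drd1, Tac1 and Sfxn1 are all on the D1 list of markers. Slc35d3 and Cntnap3 were chosen for a difference between the types, so nothing is read from their likeness to D1 markers. Among the 3 genes most like Cntnap3 were Sfxn1 at 0.60 and Tac1 at 0.62, so Slc35d3 and Cntnap3 share these. Among the 3 most like Impg1 were Ube2ql1 at 0.88 and the cadherin Cdh22 at 0.90. Lrrn2 was nearest to Cntnap1, a contactin-associated protein of paranodes, at 0.40, then to Fkbp1a at 0.42 and Ppp6c at 0.45. Cntnap1 shared the order of groups at its top, with 34.31 TPM in old D1, 58.07 in young D1, 43.06 in old D2 and 34.49 in young D2. Pcp4 was nearest to Tomm70a, a mitochondrial import receptor, at 0.36, then to Tlk1 at 0.40 and Tpd52 at 0.41.

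On the D2 side, Ptprm was nearest to the cation channel Trpc4 at 0.71 log2 units, then to Pagr1a at 0.72 and the purine receptor P2ry1 at 0.74. P2ry1 averaged 6.48 TPM in old D1, 1.87 in young D1, 61.05 in old D2 and 23.88 in young D2. Plxdc1 was nearest to Unk at 0.64, then to the peptidase Mme at 0.68 and Gtpbp10 at 0.75. Upb1 was nearest to the synaptic adhesion gene Slitrk6 at 0.59, which averaged 0.24 TPM in old D1, 0.18 in young D1, 4.66 in old D2 and 6.23 in young D2. Kmt2d, at 0.75, and Fam163b, at 0.80, followed. These distances are descriptions over 16 libraries that share groups, and low genes are moved most by the added 1.

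A transcript-level test was planned but could not be run, because no gene of the 8 had 2 or more isoforms above 1% of its level with at least 20 counts in every library. Slc35d3, Cntnap3, Pcp4 and Ptprm have 1 isoform each in the tables, and the 3428-base isoform of Lrrn2 held at least 99.95% of its level in every group. For Impg1, a 2965-base isoform held 86.3% of the mean level in old D1 and 38.1% in young D1. Its 3356-base isoform held 0% in old D1 and 33.1% in young D1. For Plxdc1, a 2881-base isoform held 89.5% in old D2 and 46.6% in young D2. At these low counts the division between isoforms is uncertain, so the shares describe the deposited estimates and nothing is compared.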

How the data were processed

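Per the labels, cDNA of ribosome-bound mRNA was made with NuGEN Ovation V2. The submitters' processing notes name STAR 2.5.1b, RSEM 1.2.20 and the build mm10. Per the file headers, the authors deposited expected counts from RSEM and TPM for genes and isoforms. Which annotation release and strand setting were used is not given in the sources used. Where a fragment fits several genes or isoforms, RSEM divides it by a model. There are no molecular identifiers, so intervals and floors cover counting error only. A further 3 samples of NIH-3T3 cells are not analysed here.

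Expected counts were rounded. In R 4.3.3 with limma 3.58.1 and edgeR 4.0.16, low genes were dropped by filterByExpr, libraries were scaled by TMM and the rest was fitted with the two-sided robust quasi-likelihood test across all genes and 16 libraries, with 1 mean per group. The SE is the size of the log2 fold change over the square root of the test's F. P-values were adjusted by Benjamini-Hochberg over 13926 genes. A group without counts was given a floor of 3 counts, and ratios of summed counts an exact 95% interval. The script was tested on simulated data. Genes named are the 8 members, for each the 3 genes of most similar pattern (mean TPM of at least 5 in a group), up to 2 called relatives per direction and comparison, and Drd1, Drd2, Tac1, Penk and Adora2a, of which a part is described. A gene that met this rule is not reported here. Members and lists were chosen with earlier results of these data known.

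Alternatives were RLE size factors, no count filter, DESeq2 1.42.0, limma-trend on log2(TPM + 1), voom with library weights, removal of base composition and length trends, only the compared groups, and each library left out. Names and positions (1-based) came from GENCODE M21, and promoters and motif shares from RefSeq GRCm38.p6. Of the 8 members, 7 matched a promoter.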

Additional observations from a re-analysis of the deposited data

Results flagged for a closer look

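The age changes in D1 and D2 neurons differed for Impg1, by -6.10 on the log2 scale, and for Lrrn2, by -2.21, a description since the genes were chosen on the type differences it is made of. Among the relatives they differed for Lrrc4b, by -2.33. Both Impg1 and Lrrc4b lose this call in most fits that leave out 1 library. Single libraries stood far from the other 3 of their group in 4 of 31 groups tested, where chance gives about 1 in 20. These were Slc35d3 in young D2 replicate 4, at 5.64 TPM beside 0 to 0.81 TPM, and Pcp4 in young D1 replicate 3, at 44936.63 TPM beside 31557 to 33032 TPM. The other flags were Upb1 in old D1 replicate 4, at 0.08 TPM from 4 counts beside 0, and Upb1 in old D2 replicate 3, at 9.67 TPM beside 1.0 to 2.39 TPM. Where the rest of a group is at 0, any count sets a library apart this far, so nothing is read from the number of flags.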

How the results depend on the processing

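No paired analysis was possible because the replicate numbers follow the order of the records and tie no libraries together. Members called for age in D1 numbered 1; voom with library weights, removal of base composition and length trends, and the compared groups alone gave 0, and leaving out a library gave 1 to 1. For age in D2 there was 1 call; DESeq2 gave 2 (Impg1 and Cntnap3), voom 1 (Pcp4, with Impg1 lost at an adjusted p = 0.0506), limma-trend on log2(TPM + 1) and the compared groups alone 0, and leaving out a library 0 to 1. For the difference of age changes there were 2; no count filter, limma-trend and voom gave 1, removal of the trends 0, and leaving out a library 1 to 2. Called relatives numbered 13 for age in D1 (7 to 17 with a library left out, 7 without young D1 replicate 4), 0 for age in D2 (0 to 1, 1 without old D1 replicate 4), 1 for the difference (0 to 5, with 5 without old D1 replicate 3, 3 without old D1 replicate 4 or young D1 replicate 3, 1 without old D2 replicate 1 or 4 and 0 otherwise), 13 for D1 against D2 at 2 years (9 to 19) and 1 at 42 days (1 to 1). Lrrc4b was at -0.95 (adjusted p = 0.476) without the trends.

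Over all genes, calls for age in D1 numbered 1508 (750 higher, 758 lower), beside 2600 with DESeq2, 554 with voom (393 higher, 161 lower), 795 without the trends and 305 in the compared groups. For age in D2 they numbered 11, beside 102, 152, 13 and 39, with 801 at an unadjusted p under 0.05. For the difference they numbered 246, beside 1019, 161 and 39 for the 3 that apply. Of 1098 single-gene values under alternatives, 1010 kept direction and side of the threshold or moved less than the spread, 56 lost a call, 4 gained one, 16 moved and 12 changed sign. Without the trends, Cntnap3 for age in D1 was -0.24 and Lrrn2 in D1 against D2 at 2 years 0.39. The difference for Plxdc1 was -0.24 by limma-trend and -0.12 by voom. With a library left out, sign changed within -0.04 to 1.14 for Impg1 in D1 (-0.04 without old D1 replicate 4), -0.20 to 0.89 for Plxdc1 in D1 (-0.20 without old D1 replicate 3), -0.11 to 0.86 for Plxdc1 in D2 (-0.11 without young D2 replicate 2), -1.82 to 0.01 for Upb1 in D2 (0.01 without young D2 replicate 4) and -0.51 to 0.66 for the Plxdc1 difference. None of these was called. The cause of the changes was not tested. Of 24 genes of similar pattern, 17 were shared with an added 0.5 TPM and 19 with a minimum mean of 1 TPM. The isoform test and its alternatives were not run. Depth limits Upb1 and Impg1 most, at 0 to 8 counts in a whole group.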
